A study of Mus musculus with 37 samples.

Results

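The EGF receptor family of the mouse has 4 receptors, Egfr, Erbb2, Erbb3 and Erbb4, and the 6 ligands described with them were Areg, Ereg, Hbegf, Tgfa, Btc and Epgn. These 10 genes were chosen by name as the family and its EGF-like ligands, by a rule that uses no measured value, although earlier results of these data were known, and all 10 were found among the 24421 gene symbols of the count table. The receptors are tyrosine kinases of the cell surface that work as dimers. Egfr and Erbb4 bind ligand and signal, Erbb2 has no ligand of its own and serves as a partner, and Erbb3 has little kinase activity and signals through its partners. The ligands are made as membrane proteins and are cut loose by sheddases, after which RAS-MAPK and PI3K-AKT signaling drives growth and repair of epithelia, the urothelium of the ureter and bladder among them.

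Whole-transcriptome sequencing had been made of 37 tissue libraries of female BALB/c mice with the wild-type genotype. BBN, a nitrosamine that is used to induce cancer of the urinary tract in rodents, was given at 0.05% in drinking water from 6 to 7 weeks of age, for 18 weeks as the labels give it, and control mice received tap water. UT is the upper urinary tract on the side with cancer, after BBN (10 libraries from 9 mice in the main comparisons, since both ureters of mouse 5 were cancerous), and UN is the side without cancer of BBN-treated mice (7 libraries from 7 mice). U is the ureter of untreated mice (6 libraries, right and left of 3 mice), and B and BB are the bladders of the same 3 untreated mice and of 9 BBN-treated mice. An 11th UT library, UT 9, and a 10th BBN bladder, BB 6, were left out of the comparisons. The library name of BB 6 carries T, the letter used for the cancer side, while its title says only bladder. Each library is a piece of whole tissue, in which fewer cells of a type and less RNA per cell cannot be told apart.

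The total per library ranged from 9724542 to 16735797 counts in UT, from 4675081 to 14973904 in UN, from 12980008 to 18793560 in U, from 3557697 to 15104379 in BB and from 14348701 to 16617435 in B. Levels are given in CPM, the count of a gene divided by the total of its library and multiplied by 1000000. The RNA integrity number of the study's sequencing table was under 5 in BB 1, BB 3, BB 4, UN 6 and U 1R. The epithelial share of the tissue differed between libraries. The summed level of 10 general epithelial genes (such as Epcam, Cdh1 and Krt8) was 1042 to 2019 CPM in U, 3449 to 9476 in UT, 30.1 to 8503 in UN, 1406 to 11942 in BB and 9235 to 9966 in B, and none of the 10 was at 0 throughout any group. UN 2 was the lowest of all, held 48652 CPM of 5 adipocyte genes, and had 16.0 CPM of 7 urothelial genes, against 1115 to 2281 in U. In UT against U, 9 of the 10 epithelial genes were called higher, and in UN against U 2 were. Of 6 basal epithelial genes, 5 were called higher in UT against U (median log2 fold change 5.04) and in UN against U (3.48), and 2 in BB against B (1.55). Their summed level was 152 to 256 CPM in U, 21.9 to 10605 in UN and 2105 to 9700 in UT. Of 6 macrophage genes, 3 were called higher in both UT and UN against U, and all 4 T cell genes in UT against U, while 7 of 8 smooth muscle genes were called lower in UT against U. The members are set against the epithelial sum further below, while the part of the other cell types in the levels of the family was not tested.

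Of the 4 receptor genes, 3 rose on the cancer side against untreated ureter. Egfr, Erbb2 and Erbb3 were called higher in UT than in U, and none of the 3 was called in UN against U, UT against UN or BB against B. Erbb4 was near the limit of detection in most libraries and had a lower median in UT than in U. A gene was called where edgeR's quasi-likelihood test gave an adjusted p (Benjamini-Hochberg over all genes tested) under 0.1 and the fold change was at least 2. In UT against U, 32.9% of the 15621 genes tested were called, 18.5% higher and 14.4% lower, and of the family 9 of 10 genes were tested, since Erbb4 did not pass the filter on low counts. Read against that background, 8 of the 9 were called, all higher. Among them were Areg, Ereg and Epgn, which passed the filter through the BBN-treated libraries.

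Egfr, which binds all 6 ligands, was at 6.97 to 23.9 CPM in U (median 19.0), at 6.84 to 65.6 in UN (median 27.5) and at 22.8 to 93.8 in UT (median 60.8). 9 of the 10 UT libraries lay above every U library, and only UT 1, at 22.8 CPM, fell within their range. The log2 fold change of UT against U was 1.36 ± 0.32 (SE, adjusted p = 0.00138). In the bladder Egfr was at 57.9, 54.1 and 65.1 CPM in B 1, B 2 and B 3, and at 12.0 to 95.4 CPM in BB (median 64.9), a range that enclosed B.

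Erbb2, the partner receptor, was the most abundant receptor per kilobase of exon in every group by its median, with 15.5 CPM per kb in UT against 5.37 for Egfr and 7.3 for Erbb3. Its level was 20.7 to 41.9 CPM in U (median 33.8), 3.93 to 97.9 in UN (median 40.3) and 53.6 to 156 in UT (median 80.9). No UT library overlapped U, and the UN libraries lay on both sides of U. The log2 fold change of UT against U was 1.18 ± 0.37 (adjusted p = 0.0113). It was 0.956 with an adjusted p of 0.0816 with RNA integrity as a covariate, and 1.15 with an adjusted p of 0.116 with counts summed per mouse, and was not called in either.

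Erbb3, which carries docking sites for PI3K, had the highest estimate among the receptors, within the errors of the other two. U held 5.73 to 13.6 CPM (median 11.5), UN 1.83 to 50.6 (median 16.7) and UT 19.7 to 103 (median 43.9). All 10 UT libraries lay above U, by a log2 fold change of 1.80 ± 0.47 (adjusted p = 0.00341). UN against U was called without UN 2 (1.02, adjusted p = 0.0987), the library with the lowest epithelial level. Erbb3 was at 86.8, 67.8 and 85.8 CPM in B 1, B 2 and B 3 and at 4.34 to 132 in BB (median 61.2).

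Among the 9 BB libraries compared, the 3 of low RNA integrity stood apart from the other 6 for the members except Areg and Epgn, whose ranges overlapped. How many of all genes stood apart in this way was not counted, so it is not shown to be a trait of the family. The 3 also had the lowest totals of the 9, at 3557697 to 7820510 counts. Their 10 most abundant genes held 21.5% to 29.5% of the counts, against 5.17% to 6.84% in the other 6. BB 6, left out, was not of low RNA integrity but lay with or near the 3, with Egfr at 8.14 CPM, Erbb2 at 11.3, Erbb3 at 4.07 and Tgfa at 12.5, and its summed epithelial level was 3551 CPM. In BB 1, BB 3 and BB 4, Erbb2 was at 7.93 to 15.8 CPM, while the other 6 BB libraries held 115 to 229. For Erbb3 the ranges were 4.34 to 5.48 and 50.1 to 132 CPM, and for Egfr 12.0 to 15.5 and 45.9 to 95.4 CPM. Ereg, Hbegf, Tgfa and Btc were lower in the 3 libraries as well, with Tgfa at 4.22 to 9.0 against 67.7 to 149.4 CPM, and Erbb4 was higher. The summed epithelial level of the 3 libraries was 1406 to 3096 CPM, the lowest of the BB libraries compared. BB against B was -0.49 ± 0.67 for Erbb2 (adjusted p = 0.651) and -0.31 ± 0.71 for Erbb3 (adjusted p = 0.796) on the log2 scale, and without the 3 libraries it was 0.00255 and 0.19. For Egfr it was 0.04 (adjusted p = 0.963) and 0.38 without them.

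Erbb4, the receptor of neuregulins and betacellulin, had 0 to 16 counts in each of the ureter libraries but 2. Its median was 0.709 CPM in U, 0.20 in UN and 0.134 in UT, and 9 of the 10 UT libraries, at 0 to 4 counts, lay below every U library, at 6 to 16 counts. No fold change was fitted, since it did not pass the filter. UT 4 held 43 counts (3.42 CPM), where the other UT libraries had at most 0.312 CPM, and UN 6 held 17 counts (3.64 CPM). UT 4 was also the library with 2098 CPM of 5 kidney tubule genes, against 16.3 CPM at most in UN and 5.08 in U, and it held 41.8 CPM of Egf, which the kidney tubule makes. In the bladder, Erbb4 was at 3.16 to 8.99 CPM in the 3 BB libraries of low RNA integrity and at 0.0662 to 0.628 in the other 6, with 0.627, 0.466 and 1.68 CPM in B 1, B 2 and B 3. UN 6 was of low RNA integrity as well. The part of kidney tissue and of RNA integrity in these levels was not tested.

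**Figure D1:**
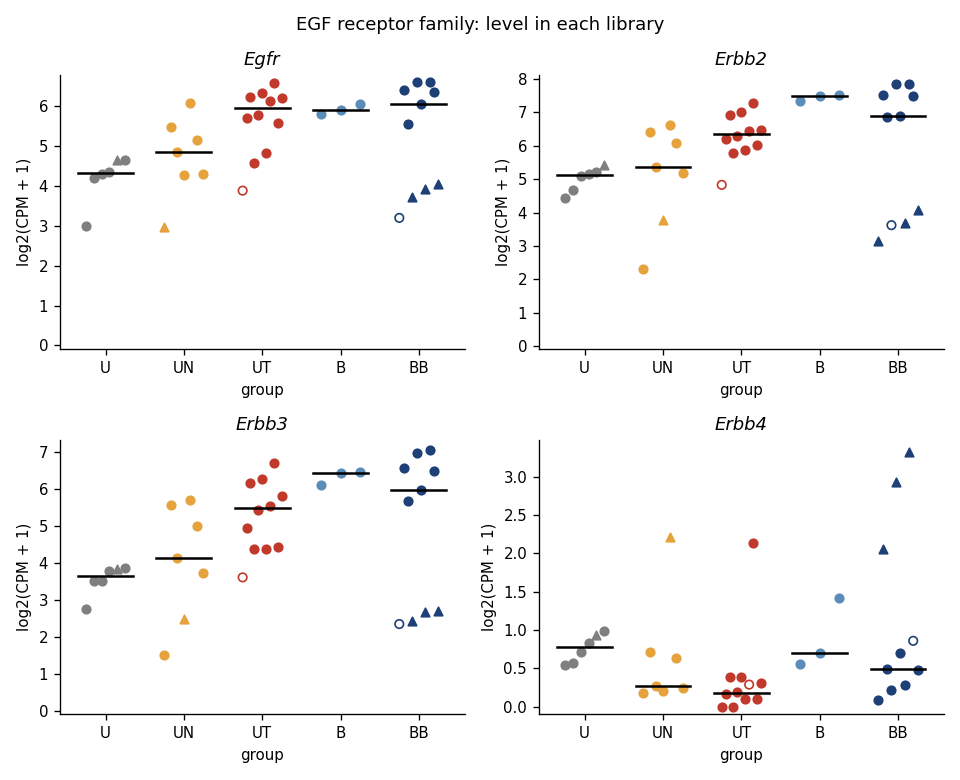
Level of the 4 receptor genes in each library, as log2(CPM + 1), by group (U untreated ureter, UN and UT sides without and with cancer of BBN-treated mice, B and BB bladders of untreated and BBN-treated mice). Each point is a library, bars are medians of the libraries compared, triangles are libraries with an RNA integrity number under 5, and open circles are UT 9 and BB 6, which were left out. The 10 UT libraries compared lie above U for Erbb2 and Erbb3 without overlap, while UT 9 lies within U, and the 3 low-integrity BB libraries lie apart from the other 6 compared in all 4 panels, while BB 6 lies with the 3 for Egfr, Erbb2 and Erbb3.

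Among the ligands, 3 rose wherever BBN had been given. Areg, Ereg and Hbegf were called higher in UT against U, in UN against U and in BB against B. In UN against U, 13.5% of all genes tested were called, 11.8% higher and 1.66% lower, and the 3 were the only ones of the 9 family members tested that were called. In BB against B, 12.7% of 17997 genes were called, 7.22% higher and 5.47% lower, and 5 of the 10 members were called, all ligands and all higher. UT against U and UN against U share the U libraries.

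Areg encodes amphiregulin, an EGFR ligand of low affinity made by injured and inflamed epithelia. The U libraries held 1 to 8 counts of it (0.0696 to 0.521 CPM, median 0.266). UT held 2.93 to 61.4 CPM (median 12.0), above U in all 10 libraries, and UN held 0.183 to 39.0 (median 4.42), above U in 6 of 7. The exception was UN 2, at 2 counts. The log2 fold change was 5.41 ± 0.98 in UT against U (adjusted p = 0.000175) and 5.30 ± 0.99 in UN against U (adjusted p = 0.00203).

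In the bladder Areg had the highest fold change of the family. B 1, B 2 and B 3 held 0.139, 0.733 and 0.361 CPM, and BB held 8.18 to 95.7 (median 69.8), with no overlap. The log2 fold change was 7.26 ± 0.85 (adjusted p = 0.000182), and it was 7.49 without the BB libraries of low RNA integrity. Per kilobase of exon, Areg was the most abundant family member of BB by its median (57.4 CPM per kb), above Erbb2 at 22.4, while in B it was at 0.297.

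Ereg, which encodes epiregulin, a ligand of both EGFR and ERBB4, ran close to Areg over the libraries. U held 0.106 to 0.456 CPM (median 0.208), UT 4.18 to 64.0 (median 12.7) and UN 0.183 to 48.3 (median 4.71), and UN 2 was again the lone BBN-treated ureter within the range of U. The log2 fold change was 5.89 ± 0.90 in UT against U (adjusted p = 4.66e-05), the highest of the family in the ureter, and 5.43 ± 0.90 in UN against U (adjusted p = 0.000831). B 1, B 2 and B 3 held 2.37, 0.466 and 1.08 CPM and BB 7.03 to 105 (median 58.5), a log2 fold change of 5.46 ± 0.86 (adjusted p = 0.00131). UT 10 was the highest UT library for both genes and UT 7 the lowest.

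Hbegf encodes heparin-binding EGF-like growth factor, known in the bladder as a growth factor of urothelium and smooth muscle. U held 2.29 to 4.08 CPM (median 2.99), UN 4.94 to 66.7 (median 11) and UT 14.9 to 154 (median 33.9). It was the family member for which all 17 BBN-treated ureter libraries lay above all 6 U libraries. The log2 fold change was 3.74 ± 0.57 in UT against U (adjusted p = 4.9e-05) and 2.5 ± 0.56 in UN against U (adjusted p = 0.00657). B 1, B 2 and B 3 held 10.7, 9.19 and 7.22 CPM, and 8 of the 9 BB libraries lay above them, at up to 291 CPM in BB 7. BB 3, of low RNA integrity, held 8.71 CPM. The log2 fold change of BB against B was 3.26 ± 0.80 (adjusted p = 0.0198), and with B 1, B 2 or B 3 left out it was 3.39, 3.26 or 3.13 with an adjusted p of 0.117, 0.129 or 0.142, so that the call needed all 3 B libraries.

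With counts summed per mouse, which leaves 3 U mice, 1 of the 3 UN calls was left. The adjusted p was 0.105 for Areg and 0.163 for Hbegf at nearly the same fold changes, 5.28 and 2.49, and Ereg stayed called.

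Tgfa, which encodes transforming growth factor alpha, an EGFR ligand made by many epithelia, rose in UT against U and was not called in UN against U or BB against B. U held 11.6 to 23.9 CPM (median 19.4), UN 0.914 to 82.4 (median 22.3) and UT 25.0 to 140.3 (median 44.3). All UT libraries lay above U, and the log2 fold change was 1.25 ± 0.50 (adjusted p = 0.0447). It was 0.88 with an adjusted p of 0.245 with RNA integrity as a covariate, 1.26 with an adjusted p of 0.217 with counts summed per mouse, and just under 2-fold (0.998, adjusted p = 0.0932) without UT 10. In the bladder Tgfa was not called: B 1, B 2 and B 3 held 148, 131 and 146 CPM, and 8 of 9 BB libraries lay below them (median 68.2), with a log2 fold change of -1.04 ± 0.65 (adjusted p = 0.294). By limma's voom with a variance for each group, which gives the narrow B group its own spread, Tgfa was called lower (-1.43, adjusted p = 0.0173), as was Erbb2 (-1.07, adjusted p = 0.0788). By edgeR without the 3 BB libraries of low RNA integrity, Tgfa was at -0.55 (adjusted p = 0.158) and Erbb2 at 0.00255 (adjusted p = 0.995), neither called.

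Btc, which encodes betacellulin, a ligand of EGFR and ERBB4, was the tested member without a call in the ureter. U held 5.69 to 8.98 CPM (median 6.56), UN 2.74 to 16.8 (median 8.12) and UT 5.14 to 20.4 (median 11), and the 3 groups overlapped. The log2 fold change was 0.37 ± 0.32 in UT against U (adjusted p = 0.344) and 0.21 ± 0.34 in UN against U (adjusted p = 0.707). In the bladder it rose from 4.67, 3.66 and 4.69 CPM in B 1, B 2 and B 3 to 3.2 to 28.6 in BB (median 21.3). 7 of the 9 BB libraries lay above B, and the log2 fold change was 2.30 ± 0.48 (adjusted p = 0.00788).

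Epgn, which encodes epigen, a ligand of low affinity, had few counts. U held 0 to 7 counts (0 to 0.456 CPM, median 0.117), UN 0 to 75 (median 0.225 CPM) and UT 3 to 168 (0.299 to 11.1 CPM, median 0.989), and 7 of 10 UT libraries lay above U. It was called higher in UT against U, by a log2 fold change of 3.33 ± 1.06 (adjusted p = 0.0129). With RNA integrity as a covariate the value was 1.29 (adjusted p = 0.307), so the call ended. In the bladder, B 1 held 3 counts and B 2 and B 3 held 0, against 1 to 122 counts in each BB library. The ratio of the summed counts after division by the library totals, 316 counts against 3, was 48.3 with an exact 95% interval of 16.4 to 236, which covers counting error only, and the adjusted p of BB against B was 0.0341. Without B 2 or B 3 it was 0.165 or 0.164.

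**Figure D2:**
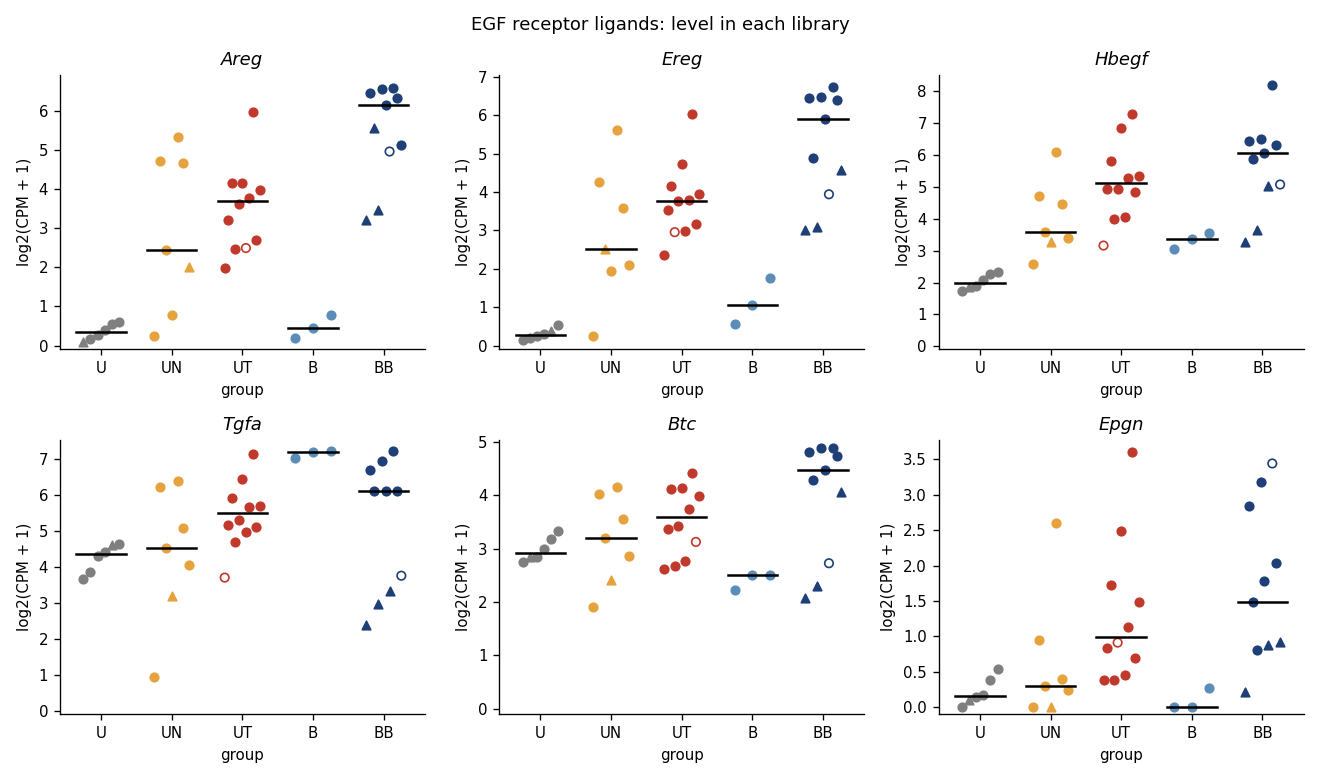
Level of the 6 ligand genes in each library, as log2(CPM + 1), with groups, bars and symbols as in the plot of the receptors. Areg, Ereg and Hbegf are higher in nearly all BBN-treated libraries than in U and B, with UN 2 the lowest BBN-treated ureter for all 3, while Tgfa has its highest median in B (131 to 148 CPM, with BB 7 above at 149.4) and Btc overlaps between U, UN and UT.

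Taking the 2 kinds of gene as groups, the median log2 fold change of UT against U was 1.36 over the 3 receptors tested and 3.54 over the 6 ligands, beside 0.08 over all genes tested. In UN against U it was 0.54 and 2.31, beside 0.08, and in BB against B -0.14 over 4 receptors and 4.24 over the ligands, beside 0.25. In the ureter the filter on low counts shaped these medians. Areg, Ereg and Epgn, at most at 0.521, 0.456 and 0.456 CPM in U, passed it through the BBN-treated libraries, where they were higher. Erbb4, with a lower median in UT than in U, did not pass it.

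**Figure D3:**
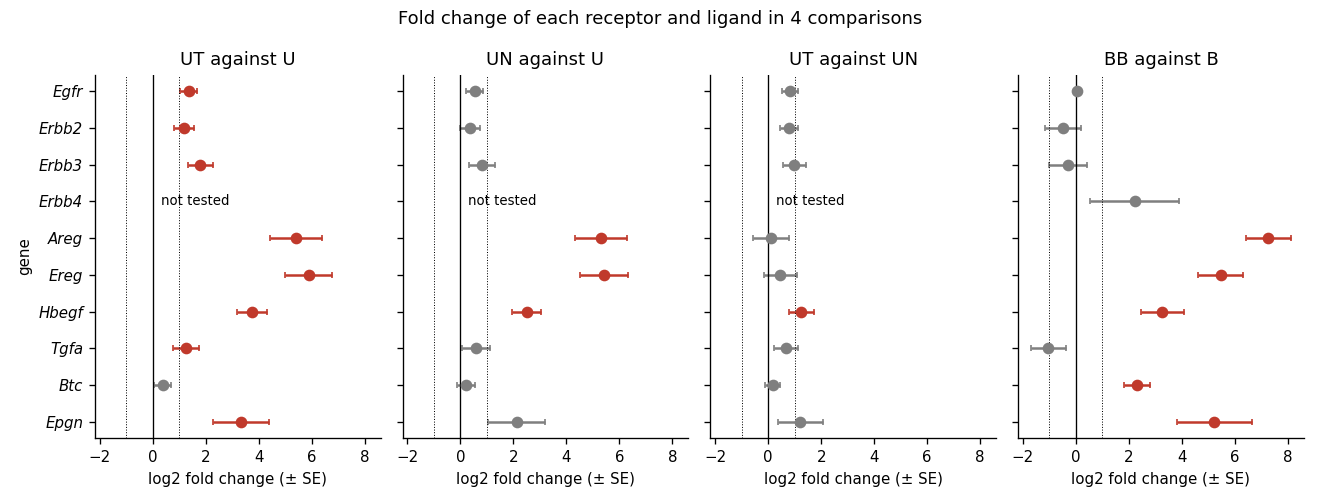
Log2 fold change with its standard error for each family member in 4 comparisons, with called members in red and others in gray, and dotted lines at 2-fold. No error is drawn for Egfr in BB against B, whose fold change was near 0, and Erbb4 was not tested in the ureter. The points of Areg, Ereg and Hbegf lie at 2.5 or more in UT against U, UN against U and BB against B, and at 1.24 or less in UT against UN.

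The cancer side was then set against the other side. In UT against UN, 10.8% of all genes were called, 2.8% higher and 8% lower, and of the 9 members tested Hbegf was called (1.24 ± 0.47, adjusted p = 0.0883). Egfr had a smaller adjusted p, 0.0729, but its log2 fold change of 0.82 ± 0.29 was under 2-fold. Areg differed by 0.11 ± 0.68 (adjusted p = 0.933) and Ereg by 0.46 ± 0.61 (adjusted p = 0.626). The medians of Areg, 12.0 CPM in UT and 4.42 in UN, lay further apart than this, since UN 1, UN 3 and UN 7 held 24.2 to 39.0 CPM and the other UN libraries 4.42 or less.

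In 6 mice both sides were among the libraries compared. Hbegf was higher on the cancer side in 5 of the 6, all but mouse 7, with a median difference of 1.02 and a range of -2.09 to 4.7 on the log2(CPM + 1) scale. Egfr, Erbb2, Erbb3, Ereg, Tgfa and Btc were each higher on the cancer side in 4 of 6, the exceptions being mice 1 and 7. The share of all genes that were so was not counted. The UN libraries of these mice include UN 2, with the lowest epithelial level (30.1 CPM). They also include UN 6, of low RNA integrity and with the lowest UN total (4675081 counts). Areg was higher in 3 of 6. In mouse 9, whose UT library was left out, Hbegf was at 7.93 CPM in UT 9 and 9.58 in UN 9, and Egfr, Erbb2, Erbb3 and Tgfa were also lower in UT 9, while Areg, at 4.63 and 4.42, Ereg, Btc and Epgn were higher. With the mouse as a replicate block, edgeR called none of the 9 members, of which 0 had an unadjusted p under 0.05, and Hbegf was at 0.84 (adjusted p = 0.857). The call of Hbegf was also lost with all 11 UT libraries (adjusted p = 0.167). Leaving out single libraries gave 0 to 5 called members. None was called without UT 2, UT 5R, UT 10, UN 2, UN 4, UN 6 or UN 9, 2, Hbegf and Erbb3, were called without UT 1, UT 6, UT 7, UT 8 or UN 1, and 5, Hbegf, Egfr, Erbb2, Erbb3 and Epgn, were called without UN 7, the UN library with the highest level of 8 of the 10 members.

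The untreated tissues were compared to see where the family started from. In U against B, 15.8% of 18769 genes were called, 7.04% higher and 8.74% lower, and 4 of the 10 members were called, all lower in the ureter. They were Egfr (-1.39 ± 0.44, adjusted p = 0.037), Erbb2 (-2.15 ± 0.66, adjusted p = 0.0296), Erbb3 (-2.56 ± 0.71, adjusted p = 0.0161) and Tgfa (-2.63 ± 0.74, adjusted p = 0.0175), and for each of them the 6 U libraries all lay below the 3 B libraries. The same order held for the summed level of the 10 epithelial genes, at 1042 to 2019 CPM in U and 9235 to 9966 in B. Of 8 smooth muscle genes 5 were called lower in U, and all 5 adipocyte genes were called higher, with a summed level of 36134 to 56194 CPM in U and 67.8 to 1530 in B. The part of these tissues in the difference was not tested. Egfr was no longer called without B 1 (adjusted p = 0.109) or B 3 (adjusted p = 0.15). U and B came from the same mice, and with the mouse as a replicate block 6 of the 7 members tested were called, as were 4599 of 15328 genes, adding Hbegf lower (-1.14, adjusted p = 0.000978) and Btc higher (1.07, adjusted p = 0.000777) in U. The U and B libraries alone, without the block, also gave 6 called members of 7 and 4592 genes.

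Whether BBN changed a gene to a different extent in the 2 tissues was tested as an interaction, the log2 fold change of UN against U minus that of BB against B. It was called for 2.33% of 18769 genes, 1.65% higher and 0.682% lower, and for 1 of the 10 members, Btc, at -2.06 ± 0.55 (adjusted p = 0.0618). Btc was thus higher after BBN in the bladder by more than in the ureter without cancer, with medians of 4.67 CPM in B and 21.3 in BB against 6.56 in U and 8.12 in UN. The call was lost with the mouse as a replicate block (-1.84, adjusted p = 0.122), and without U 3R, U 3L, B 1, B 2 or B 3, where the value stayed between -2.13 and -1.94. For the other members, the interaction of Areg was -1.92 ± 1.31 (adjusted p = 0.573), that of Hbegf -0.76 ± 0.81 (adjusted p = 0.734) and that of Erbb3 1.14 ± 0.89 (adjusted p = 0.624), errors wide enough to hide a change of several fold. With the mouse as a replicate block, 6 of the 10 members had an unadjusted p under 0.05 by edgeR, as had 4227 of 18296 genes. Of the members 0 were called there.

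Group levels were also put in order by their medians. For Areg, Ereg and Hbegf the order was BB, UT, UN, B and U, for Erbb2, Erbb3 and Tgfa it was B, BB, UT, UN and U, for Btc and Epgn BB, UT, UN, U and B, for Egfr BB, UT, B, UN and U, and for Erbb4 U, B, BB, UN and UT. Of the 40 pairs of neighbours in these orders, 9 had an unadjusted p under 0.05 and 0 passed after adjustment (two-sided exact permutation test on log2(CPM + 1), smallest adjusted p = 0.162). For 7 of the 40, among them BB and UT for Egfr, Erbb2, Erbb3 and Tgfa, the mean difference that was tested ran against the order of the medians.

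Because epithelial content differed between libraries, the members were also set against it. The level of each member was divided by the summed level of the 10 epithelial genes of the same library and compared between groups with a two-sided exact permutation test, in 36 comparisons whose p-values are not adjusted. Relative to epithelium, Areg, Ereg and Hbegf were higher in UT than in U, by 3.39, 3.80 and 1.71 on the log2 scale. No libraries overlapped, and the exact p was 0.00025, the smallest value that 10 against 6 libraries allow. In UN against U the differences were 4.03 (p = 0.00466), 4.27 and 2.13 (p = 0.00117 for both, the smallest possible). Without UN 2, whose epithelial level of 30.1 CPM was the lowest, they were 3.78 (exact p = 0.00866), 4.04 and 1.42 (exact p = 0.00216 for both, the smallest possible). In BB against B they were 7.68, 5.90 and 3.31 (p = 0.00909 for each, the smallest possible). The 10 genes stand for epithelium as a whole. Of 6 basal epithelial genes, 5 were called higher in UT against U and in UN against U, and 2 in BB against B. A rise of Areg, Ereg and Hbegf within cells and a change in the kind of epithelium cannot be told apart here.

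For Egfr, Erbb2, Erbb3 and Tgfa no such difference was detected in UT against U. Relative to epithelium, UT differed from U by -0.29 for Egfr (exact p = 0.527), by -0.49 for Erbb2 (exact p = 0.0617), by 0.00275 for Erbb3 (exact p = 0.986) and by -0.53 for Tgfa (exact p = 0.0524), and their libraries overlapped. A change of these 4 genes in epithelial cells and a larger epithelial share of the UT tissue cannot be told apart in these libraries. In BB against B, Tgfa differed by -1.08 relative to epithelium (exact p = 0.0364, unadjusted, with overlapping libraries), and without the BB libraries of low RNA integrity it was at -0.54 (exact p = 0.0952). The ratio of Btc to epithelium was lower in UT than in U (-1.36, exact p = 0.0005). Btc itself was not lower there (log2 fold change 0.37 ± 0.32), while the median epithelial sum was 1730 CPM in U and 6929 in UT. The lower ratio thus follows from the epithelial sum and is no fall of Btc. In BB against B the ratio was higher (2.63, exact p = 0.00909). For Epgn the difference was 1.07 in UT against U (exact p = 0.161) and 5.59 in BB against B (exact p = 0.00909).

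**Figure D4:**
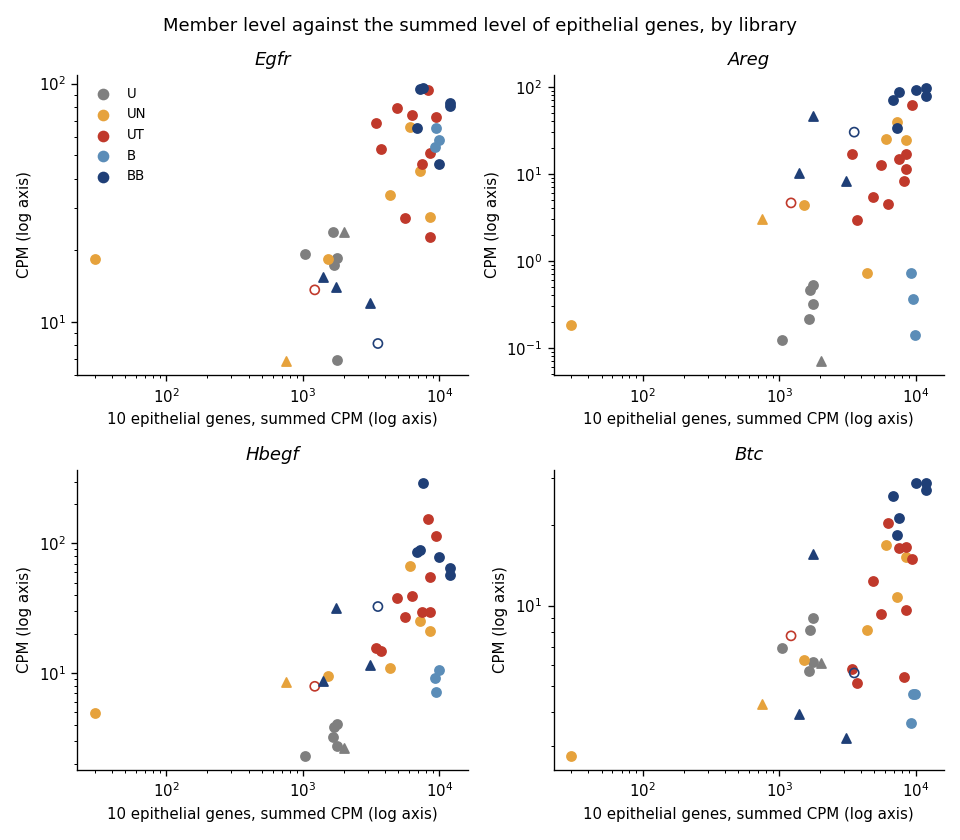
Level of Egfr, Areg, Hbegf and Btc in CPM against the summed CPM of 10 epithelial genes, both on log axes, with a point for each library and symbols as in the plot of the receptors. U libraries, at 1042 to 2019 epithelial CPM, lie on the trend of Egfr and under all UT and 6 of the 7 UN libraries for Areg, with UN 2 within their Areg range, and B, at 9235 to 9966, lies under BB libraries of like epithelial level for Areg, Hbegf and Btc.

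The genes of Epgn, Ereg, Areg and Btc are neighbours. In GENCODE vM21 on GRCm38 they lie in this order on chr5:91027464-91402994, a stretch of 376 kb, with Btc on the minus strand and the others on the plus strand. Areg spans chr5:91139599-91148432 and Ereg chr5:91074622-91093646. The long noncoding gene Gm19619, between Areg and Btc, had a median of 0 in U and B and at most 0.132 CPM elsewhere. Mthfd2l, the nearest gene before Epgn, had medians of 10.2 CPM in U and 16.6 in UT, and Parm1, after Btc, had 71.9 in U and 26.7 in UT. Farther from Epgn than Mthfd2l lie the chemokine genes Cxcl3, Cxcl15, Cxcl1 and Cxcl2, with medians of 0.0266 to 0.526 CPM in U and 1.88 to 10.6 in UT. From Epgn to Btc each of the 4 ligands had a higher median in UT than in U, and Mthfd2l, outside it, did too, while Parm1 had a lower one.

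**Figure D5:**
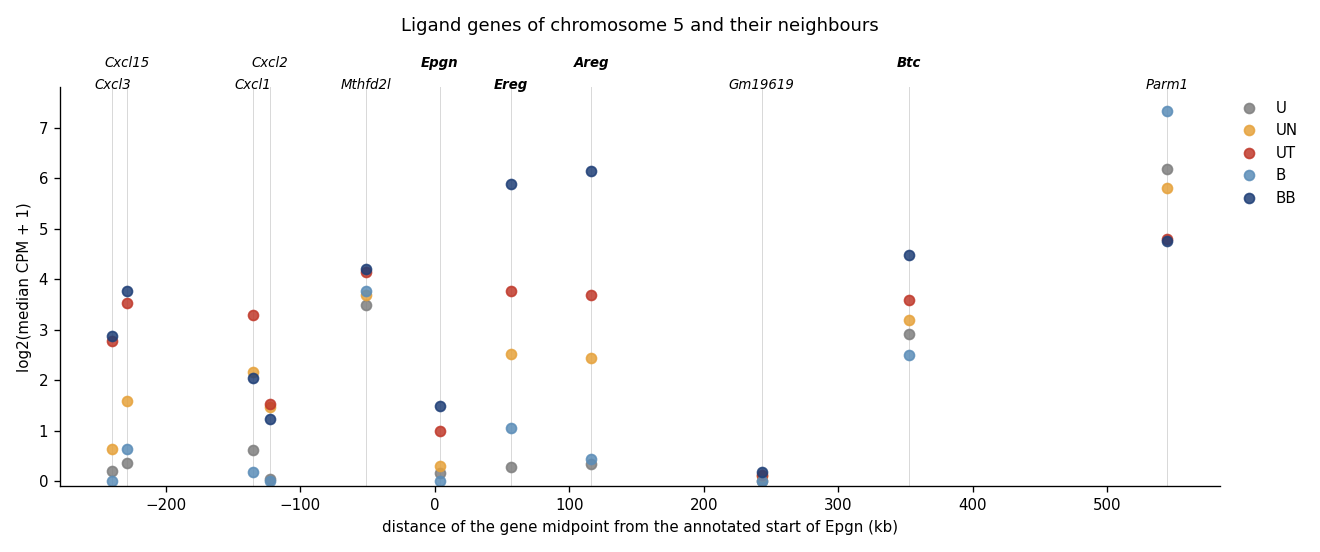
Median level of the ligand genes of chromosome 5 (bold) and of annotated neighbours within 250 kb, as log2(median CPM + 1), against the distance of each gene's midpoint from the start of Epgn in kb, with a point for each group. Ereg and Areg stand at 12.7 and 12.0 CPM in UT and 58.5 and 69.8 in BB against at most 1.08 in U and B, while Mthfd2l lies between 10.2 and 17.5 in all groups.

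The promoter sequences of Areg and Btc are shown because Areg was called higher in the ureter and Btc, a ligand of the same stretch, was not, a contrast between genes that was not itself tested. Both are the 250 bases before the RefSeq start in GRCm38.p6, at chr5:91139349-91139598 on the plus strand for Areg and chr5:91402995-91403244 on the minus strand for Btc. Capitals mark matches, on either strand, to TGACGTCA (the cAMP response element), TGANTCA (the AP-1 site) and TATAAA (the TATA box), which do not overlap each other here.
Areg: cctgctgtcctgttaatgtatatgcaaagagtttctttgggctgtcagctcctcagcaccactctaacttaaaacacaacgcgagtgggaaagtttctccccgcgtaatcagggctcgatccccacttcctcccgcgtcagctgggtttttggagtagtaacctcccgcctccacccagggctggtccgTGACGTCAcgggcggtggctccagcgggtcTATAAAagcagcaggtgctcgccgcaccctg
Btc: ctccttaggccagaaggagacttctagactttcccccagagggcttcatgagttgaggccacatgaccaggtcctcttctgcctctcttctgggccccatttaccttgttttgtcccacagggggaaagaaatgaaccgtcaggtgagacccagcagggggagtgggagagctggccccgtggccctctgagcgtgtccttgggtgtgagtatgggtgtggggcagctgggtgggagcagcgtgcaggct
Areg held the cAMP response element, starting 61 bases before the start, and the TATA box, 31 bases before it, and Btc held none of the 3 motifs. Of 32851 RefSeq promoters of this length, 1.55% held the cAMP response element, 6.75% the AP-1 site and 12.4% the TATA box. 7 of the 10 members were in the promoter table. Epgn, at 86 bases before its start, was the only other with a TATA match, and Egfr, Erbb2, Erbb4 and Tgfa had no match to any of the 3. A match describes these letters and was not tied to binding.

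Over the 35 libraries compared, the gene most like Areg among all genes tested in the ureter was Ereg, and the reverse held as well (Pearson's r = 0.962 on log2(CPM + 1)). Erbb2 and Erbb3 were nearest to each other (r = 0.974). The next nearest genes to Ereg were Ptgs2 (r = 0.935), the inducible cyclooxygenase, and Krt4 (r = 0.935), a keratin. Nearest to Hbegf were BC016579 (r = 0.966), Epha2 (r = 0.961) and Col17a1 (r = 0.944), a collagen of the hemidesmosomes of basal epithelium, and nearest to Epgn was Fosl1 (r = 0.853), an AP-1 subunit. Tgfa was nearest to Dlg3 (r = 0.967), Egfr to Iqgap1 (r = 0.943) and Btc to Trim2 (r = 0.84). These values describe libraries that share tissue, mice and RNA integrity, and they are not tests.

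Of 51 other genes of the pathway, 50 were tested in the ureter, of which 13 were called higher and 7 lower in UT against U, 8 higher and 0 lower in UN against U, and 2 higher and 1 lower in UT against UN. In BB against B, 8 of 51 were called higher and 2 lower. Of all genes tested, 18.5% were called higher and 14.4% lower in UT against U, 11.8% and 1.66% in UN against U, 2.8% and 8% in UT against UN, and 7.22% and 5.47% in BB against B.

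Among 5 other ligands of the family, Nrg1, a neuregulin that binds ERBB3 and ERBB4, was called higher in UT against U (4.17 ± 0.69, adjusted p = 8.44e-05), in UN against U (1.89 ± 0.65, adjusted p = 0.057), in UT against UN (2.28 ± 0.57, adjusted p = 0.0346) and in BB against B (3.43 ± 0.48, adjusted p = 0.000651). The call in UT against UN was lost with the mouse as a replicate block and with RNA integrity as a covariate, under which edgeR called 0 genes in all, with 462 and 1379 at an unadjusted p under 0.05. It was at 0.213 to 0.974 CPM in U, 0.428 to 7.2 in UN and 3.70 to 47.6 in UT, so that all UT libraries lay above U. Nrg4, a neuregulin made by adipose tissue, went the other way in UT against U (-3.2 ± 0.63, adjusted p = 0.000352), from 171 to 228 CPM in U to 5.26 to 66.4 in UT, and all 5 adipocyte genes were called lower in that comparison. Nrg2 was called higher in UN against U alone (1.72 ± 0.60, adjusted p = 0.0583). Egf itself was not called (0.89, adjusted p = 0.445 in UT against U), although its median was lower in UT, at 0.763 CPM against 2.01 in U. UT 4 held 41.8 CPM, and the other UT libraries compared held 0.144 to 2.19, beside 1.39 to 2.97 in U.

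Of the 4 sheddases and partners, Adam10, which cuts Btc and Egf loose, was higher in UT against U (1.14 ± 0.25, adjusted p = 0.00099), as was Rhbdf2, a partner of the sheddase ADAM17 (1.08 ± 0.26, adjusted p = 0.0021). None of the 4 was called in UN against U or BB against B, or had an unadjusted p under 0.05 there. In UT against UN all 4 had an unadjusted p under 0.05, as had 4668 of all 15621 genes, with Adam10 at 0.84 (adjusted p = 0.0411) and Rhbdf2 at 0.76 (adjusted p = 0.0573), under 2-fold and so not called. The 7 adaptors and ubiquitin ligases had 0 calls by edgeR, and 1 of them had an unadjusted p under 0.05 in UT against U, 0 in UN against U, 1 in UT against UN and 1 in BB against B. Of 10 RAS-MAPK genes, Nras was called higher in UT against U (1.06 ± 0.19, adjusted p = 0.000206) and Braf lower in BB against B (-1.21 ± 0.27, adjusted p = 0.0131). Of 7 PI3K-AKT genes, Akt2 (-1.71 ± 0.28, adjusted p = 8.11e-05), Pik3cb (-1.54 ± 0.27, adjusted p = 0.000133) and Pik3r1 (-1.69 ± 0.33, adjusted p = 0.000346) were called lower in UT against U, and Pik3r1 lower in BB against B as well (-1.12 ± 0.26, adjusted p = 0.0151). All 5 adipocyte genes were called lower in UT against U too, and in U against B, where they were called higher, so were Akt2 (1.88 ± 0.47, adjusted p = 0.00902) and Pik3cb (2.41 ± 0.50, adjusted p = 0.00215). Pik3r1 was not called in U against B (0.83 ± 0.37, adjusted p = 0.153). The part of adipose tissue in these values was not tested.

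Of 11 feedback inhibitors, 3 were called higher and 3 lower in UT against U, where 18.5% and 14.4% of all genes tested were. Errfi1, which binds and blocks the EGFR kinase, was called higher in UT against U (2.35 ± 0.49, adjusted p = 0.000568), UN against U (2.38 ± 0.51, adjusted p = 0.0047) and BB against B (1.81 ± 0.46, adjusted p = 0.0256). It was at 31.1 to 35.6 CPM in U and at 68.2 to 546 in UT. Dusp6, a phosphatase of ERK, rose from 22.1 to 33.7 CPM in U to 59.3 to 298 in UT (1.93 ± 0.33, adjusted p = 0.000119) and was called higher in UN against U too (1.24 ± 0.34, adjusted p = 0.0199). Dusp5, the phosphatase of nuclear ERK, was called higher in the same 2 comparisons (3.16 ± 0.52 and 2.39 ± 0.53). Lrig3, of a family that binds the receptors, was lower in UT against U (-1.0 ± 0.23, adjusted p = 0.00113) and higher in BB against B (1.21 ± 0.41, adjusted p = 0.0829).

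Among 7 genes known to be induced by ERK, 6 were called higher in UT against U, 3 in UN against U and 4 in BB against B, and 0 were called lower in any of these. Ccnd1, cyclin D1, was at 10 to 17.3 CPM in U, 11.1 to 127 in UN and 65.8 to 174 in UT, a log2 fold change of 2.80 ± 0.36 in UT against U (adjusted p = 1.34e-05) and 1.84 ± 0.36 in UN against U (adjusted p = 0.00271). Etv4, an ETS factor, rose by 4.09 ± 0.76 in UT against U (adjusted p = 0.000209), 3.42 ± 0.76 in UN against U (adjusted p = 0.00629) and 3.54 ± 0.99 in BB against B (adjusted p = 0.0384). Fosl1 was called in UT against U (3.15 ± 0.78, adjusted p = 0.00231), in UT against UN (1.83 ± 0.68, adjusted p = 0.0825) and in BB against B (4.07 ± 0.83, adjusted p = 0.0073). Its call in UT against UN was lost with the mouse as a replicate block and with RNA integrity as a covariate, where edgeR called 0 genes. Myc was called in UT against U (1.73 ± 0.35, adjusted p = 0.000434), and its value in UN against U was 0.91 ± 0.36. The median log2 fold change of the 7 was 1.92 in UT against U, 1.32 in UN against U and 1.35 in BB against B, beside 0.08, 0.08 and 0.25 over all genes. Levels of RNA do not show whether the receptors were active.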

How the data were processed

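RNA of whole upper urinary tract and bladder tissue was sequenced, and what the authors deposited are estimated counts for each gene symbol, without normalization. Of the values above 0, 21.1% were not whole numbers. The submitters' processing notes name TopHat2 2.1.1, Cuffdiff 2.2.1 and GRCm38/mm10, and the program that made the counts is not given in the sources used here. Columns were matched to samples by their names, and 0 were left over. Values were rounded to whole numbers. UT 9 was left out of the comparisons as in the study.

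Groups were taken from the labels. Comparisons across genes used edgeR 4.0.16 under R 4.3.3 (TMM normalization, filterByExpr, quasi-likelihood test with default settings), with the study's thresholds of an adjusted p (false discovery rate) under 0.1 and at least a 2-fold change, adjusted over all genes tested. The interaction was called by adjusted p alone. The fits held UT, UN and U, then BB and B, and then U, UN, BB and B. DESeq2 1.42.0 and limma 3.58.1 were alternatives. Single values were compared with exact permutation tests in Python 3.11.15, which take libraries as independent although U are 6 from 3 mice. Libraries of a group differed from each other by a chi-square of 7.36 or more per degree of freedom, so none was taken as a copy.

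The members and lists were chosen with earlier results of these data known. Pathway genes were named where called in UT against U, UN against U, UT against UN or BB against B, at most 4 per list by adjusted p, and for likeness the 3 nearest genes were considered. UT, UN and BB of the same number, and U and B, came from the same animals by their labels. The deviations of same-mouse UT and UN libraries from their group means had a median correlation of -0.0135 over 6 pairs and 0.00166 over 64 other pairs. The fits were tested on simulated counts. Alternatives covered normalization, filters, RNA integrity, library sets, mouse and single libraries. The ratio to epithelium, also without BB libraries of low RNA integrity or UN 2, and the fit of U and B alone were chosen after seeing the data. Positions and exon lengths are from GENCODE vM21 (GRCm38), promoters from RefSeq (GRCm38.p6).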

Additional observations from a re-analysis of the deposited data

Results flagged for a closer look

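Values far from the rest of their group were found in 5 of 40 sets of libraries examined (10 genes in the 4 groups of 6 to 10 libraries), where chance gives about 1 in 20. Egfr was at 6.97 CPM and Erbb3 at 5.73 in U 3L, the left ureter of mouse 3, against 17.3 and 10.5 in the nearest U libraries, while U 3L was among the higher U libraries for Areg, Ereg, Btc and Epgn. Erbb4 was at 3.42 CPM in UT 4 (nearest 0.312) and at 3.64 in UN 6 (nearest 0.642). Epgn was at 5.04 CPM in UN 7 (nearest 0.935).

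The response of Btc to BBN differed between ureter without cancer and bladder by -2.06 on the log2 scale, by the interaction test (edgeR, adjusted p = 0.0618). The call was lost with the mouse as a replicate block, with genes of at least 1 count, and without U 3R, U 3L, B 1, B 2 or B 3.

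In the left-out libraries UT 9 and BB 6, several ligands lay above the untreated tissue, and the share of all genes that did so was not counted. In UT 9, Areg was at 4.63 CPM, Ereg at 6.76, Hbegf at 7.93 and Epgn at 0.881, each above the highest U library (0.521, 0.456, 4.08 and 0.456), while its Egfr at 13.7, Erbb2 at 27.4, Erbb3 at 11.2 and Tgfa at 12.0 CPM lay within the range of U. In BB 6, Areg was at 30.1 CPM, Ereg at 14.4, Hbegf at 32.7, Btc at 5.61 and Epgn at 9.86, each above the highest B library (0.733, 2.37, 10.7, 4.69 and 0.209), while its Egfr was at 8.14 and its Erbb2 at 11.3 CPM, under every B library.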

How the results depend on the processing

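Of the 8 members called in UT against U, 5 were called with RNA integrity as a covariate, and of the 3 in UN against U 1 with counts summed per mouse. The member called in UT against UN was lost (0 called) with RNA integrity as a covariate, voom, the first range of library codes (untreated mice and BBN-treated mice 1 to 7, so without mice 8, 9 and 10), all 11 UT libraries, only the groups compared, counts summed per mouse and the mouse as a replicate block, and the member called in the interaction (0 called) with genes of at least 1 count and the replicate block. TMM-scaled CPM gave 1 differing pair of neighbouring groups in place of 0. Other alternatives kept these counts within 1.5 times, with 5 to 7 members called in BB against B and 4 to 6 in U against B, 6 of them with the replicate block or with only the U and B libraries. Leaving out single libraries gave 7 to 8 called members in UT against U, 3 to 4 in UN against U, 0 to 5 in UT against UN, 3 to 5 in BB against B, 3 to 4 in U against B and 0 to 1 in the interaction.

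Counts over all genes moved by more than 1.5 times. UT against UN had 1688 calls, but 2653 with genes of at least 1 count, 874 with all 11 UT libraries, 26 in the first range of library codes, 4 per mouse, 2 with only the groups compared, 1 by voom and 0 by edgeR with RNA integrity as a covariate or with the block, where 1379 and 462 genes had an unadjusted p under 0.05. UN against U fell from 2106 to 161 per mouse. BB against B rose from 2283 to 5609 by DESeq2, 4897 by voom, 3621 in the first code range and 3483 without the low-integrity bladders. U against B rose from 2962 to 4592 with U and B alone and 4599 with the block. The interaction rose from 437 to 1053 by DESeq2, 793 with RNA integrity, 1284 without the low-integrity bladders and 1216 with the block. Without any one B library BB against B had 1001 to 1035 calls, and the interaction 156 to 217. U against B had 1869 or 1872 calls without B 1 or B 3, and UT against UN 548 without UN 6, 999 without UN 2, 1081 without UN 9, 1115 without UT 10 and 2535 without UN 3. The interaction had 659 without UN 6. The cause was not tested.

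Signs of uncalled values changed in UT against UN for Areg (-0.89 with RNA integrity, -0.67 in the first code range), Ereg (-0.33 and -0.19), Btc (-0.13 with RNA integrity, -0.0616 with the block) and Epgn (-1.08 with RNA integrity). In BB against B they changed for Egfr (-0.0924 by voom, -0.11 in the first code range, -0.0859 with all 10 BB), Erbb2 (0.00255 without the low-integrity bladders), Erbb3 (0.0243 with RNA integrity, 0.19 without the low-integrity bladders) and Erbb4 (-1.46 with RNA integrity, -0.77 by voom). In U against B they changed for Erbb4 (0.00556 by DESeq2, 0.00381 by RLE, 0.086 with the block) and Areg (0.00666 with RNA integrity), and in the interaction for Erbb4 (0.0753 with RNA integrity, 1.72 without the low-integrity bladders) and Ereg (0.0172 with genes of at least 1 count). Among single libraries left out, signs of uncalled values turned for Areg in UT against UN (-0.44 to 0.62) and U against B (-0.62 to 0.43), Egfr in BB against B (-0.10 to 0.14), Erbb4 in U against B (-0.40 to 0.70) and Ereg in the interaction (-0.77 to 0.39). Depth limits Erbb4 and Epgn, with few counts in most libraries.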

Other observations

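In all 3 untreated mice the right ureter held more Egfr, Erbb2, Erbb3 and Tgfa than the left, and less Btc. The side of the other members differed between mice, and the share of all genes with a constant side was not counted. Egfr was at 23.9, 23.9 and 17.3 CPM on the right and 18.5, 19.4 and 6.97 on the left of mice 1, 2 and 3, Erbb2 at 41.9, 33.2 and 34.4 against 35.9, 24.3 and 20.7, and Erbb3 at 13.2, 12.6 and 13.6 against 10.5, 10.5 and 5.73. In the mouse with cancer on both sides, mouse 5, Areg was at 16.7 CPM on the right and 4.52 on the left. Ereg, Hbegf and Epgn were higher on the right as well. Egfr, Erbb2, Erbb3 (45.6 on the right and 71.1 on the left), Tgfa and Btc were higher on the left. Each side is a single library per mouse, and no test was made.

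Uroplakins and other urothelial genes were not a stand-in for the epithelial genes in the bladder: 5 of 7 were called lower in BB against B, where 1 of 10 general epithelial genes was.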
